A study of Homo sapiens with 6 samples.

Results

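The kinetochore and centromere components described here were 44 genes whose proteins build or load the protein assembly that links chromosomes to spindle microtubules. They were chosen by name, with earlier results of the same comparison known, from 17088 genes listed in the table of expression values, and all 44 were found. Of these, 15 encode inner kinetochore proteins, 18 outer kinetochore proteins, 6 spindle checkpoint proteins, and 5 proteins that load CENP-A or protect centromeric cohesion. Because the choice was made with this comparison in view, the members' values below are a description, and no difference among them is put forward as independent evidence.

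Expression was measured by mRNA sequencing in MDA-MB-231, a breast cancer line of the triple-negative kind with mesenchymal features. The groups were VecRPPH1, cells that overexpressed RPPH1 (the RNA component of nuclear RNase P), with 3 libraries, and VecNC, the control cells, with 3 libraries. Both groups share the parental line. The vector's promoter, whether each group is a clone or a pool, and whether replicates were separate cultures are not given in the sources used here, so any p-value here reflects the variation among these libraries alone, which could be technical. The overexpression was not checked, as RPPH1 RNA was not analysed here. The 6 libraries held between 17603126 and 18817269 fragments. Among the line's mesenchymal markers, vimentin (VIM), CD44 and AXL were high. VIM averaged 2599 ± 21.9 FPKM in VecRPPH1 and 2699 ± 38.3 FPKM in VecNC (SD, n = 3 each). CD44 averaged 220.4 FPKM in VecRPPH1 and 217.0 FPKM in VecNC, and AXL averaged 199.2 FPKM in VecRPPH1 and 204.2 FPKM in VecNC. ZEB1 averaged 12.8 FPKM in VecRPPH1 and 12.0 FPKM in VecNC, near the median of 11.3 FPKM over all tested genes. ESR1, the oestrogen receptor gene, did not exceed 0.0173 FPKM and CDH1, the E-cadherin gene, 0.144 FPKM in any library, while the epithelial gene EPCAM was detected at 6.17 to 7.29 FPKM and the luminal factor gene GATA3 at 2.33 to 3.37 FPKM. FPKM expresses fragments relative to gene length and library total. Of markers of other cell types, PTPRC, CDH5 and PDGFRA did not exceed 0.158 FPKM and PECAM1 did not exceed 0.967 FPKM in any library, while COL1A1 ranged between 3.48 and 4.22 FPKM and CD68 between 102 and 108 FPKM. On the first principal component (30.9% of the variance) VecNC replicate 1 lay at 10.9 while the other 5 libraries lay between -4.40 and 0.107.

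The kinetochore assembles on centromeric chromatin that carries the histone variant CENP-A. The inner kinetochore, a set of CENP proteins, sits on this chromatin, and the outer kinetochore, built on the KNL1, MIS12 and NDC80 complexes, grips microtubule ends. The spindle checkpoint proteins gather at kinetochores that lack attachment and hold back anaphase by inhibiting CDC20. Many of these genes are transcribed late in the cell cycle, under the DREAM and B-MYB/FOXM1 complexes that act on a promoter element called the cell cycle genes homology region (CHR), often beside CCAAT boxes bound by NF-Y. Proliferating cancer lines express nearly the whole set.

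Promoter sequences were available for 36 of the 44 genes (RefSeq, GRCh38.p14, 250 bases before to 50 after the annotated start). They are shown because the CHR core is the sequence feature most characteristic of late cell cycle genes and was not used in choosing the members. For the inner, outer, checkpoint and loading classes in turn, the 150 bases before the start of the first named gene with a CHR core anywhere in its window are printed 5′ to 3′ in the direction of transcription. Capitals mark 3 kinds of motif on either strand. The CHR core was searched as TTTGAA or TTCGAA, the NF-Y box as CCAAT, and the E2F core as GCGGGAA. On the other strand, the NF-Y box reads ATTGG in these lines. CENPA lies at chr2:26785906-26786055 on the plus strand, NUF2 at chr1:163321804-163321953 on the plus strand, BUB1 at chr2:110678064-110678213 on the minus strand and HJURP at chr2:233854536-233854685 on the minus strand. The NUF2 stretch holds none of the 3 motifs and the BUB1 stretch holds CCAAT boxes alone. Neither stretch holds a CHR core, since the cores of both genes lie just after the start.
CENPA: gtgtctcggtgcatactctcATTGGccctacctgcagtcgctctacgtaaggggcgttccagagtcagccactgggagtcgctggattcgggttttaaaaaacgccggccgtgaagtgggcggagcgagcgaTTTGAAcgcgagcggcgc
NUF2: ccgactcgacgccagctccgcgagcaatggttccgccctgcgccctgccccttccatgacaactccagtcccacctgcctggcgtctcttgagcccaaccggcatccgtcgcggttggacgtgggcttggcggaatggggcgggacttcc
BUB1: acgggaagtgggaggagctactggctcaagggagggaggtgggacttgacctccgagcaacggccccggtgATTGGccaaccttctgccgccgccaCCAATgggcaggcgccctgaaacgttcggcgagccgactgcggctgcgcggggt
HJURP: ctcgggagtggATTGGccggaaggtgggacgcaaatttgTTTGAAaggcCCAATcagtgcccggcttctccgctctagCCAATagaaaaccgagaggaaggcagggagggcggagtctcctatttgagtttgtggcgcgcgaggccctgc

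A CHR core within 50 bases of the start was found in 16 of the 36 promoters. The 30 bases around it are printed for the 6 of these genes whose VecRPPH1 and VecNC libraries did not overlap, and for CENPO and OIP5, the 2 of the 16 whose mean was lower in VecRPPH1. Capitals mark the core only, and TTCAAA is TTTGAA on the other strand. The CENPA core begins at position -18 from the start, that of NDC80 at -3, NUF2 at 17, CENPF at 41, BUB1 at 2, BUB1B at -23, CENPO at 37 and OIP5 at 2, with the first transcribed base counted as 1 and the base before it as -1. The NDC80 window carries 2 cores side by side. The windows lie at chr2:26786026-26786055, chr18:2571542-2571571, chr1:163321958-163321987, chr1:214603215-214603244, chr2:110678045-110678074, chr15:40161034-40161063, chr2:24793445-24793474 and chr15:41332573-41332602 in the order printed, with BUB1 and OIP5 on the minus strand.
CENPA: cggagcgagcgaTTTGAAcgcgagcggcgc
NDC80: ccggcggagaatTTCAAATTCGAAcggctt
NUF2: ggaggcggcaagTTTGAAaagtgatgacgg
CENPF: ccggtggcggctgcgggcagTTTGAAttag
BUB1: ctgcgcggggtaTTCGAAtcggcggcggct
BUB1B: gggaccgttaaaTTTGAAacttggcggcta
CENPO: gaccggttggtttggtTTTGAAgacgtgga
OIP5: gcctggcgtgtaTTCGAAaggaaggcgccg

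All 44 genes were expressed in every library and passed the filter on low values. Their mean levels over the 6 libraries ran from 2.22 FPKM for NSL1 to 62.1 FPKM for ZWINT, a 28.0-fold range, with a median of 17.5 FPKM beside 11.3 FPKM for all tested genes. After ZWINT came NDC80 at 53.4, CENPB at 50.7, BUB1 at 47.5 and BUB3 at 45.8 FPKM. The NDC80, CENPB and BUB1 levels were within reach of each other's library spread, since NDC80 ranged between 47.3 and 60.2 FPKM, CENPB between 48.5 and 53.0 FPKM and BUB1 between 43.0 and 51.6 FPKM. At the low end stood SGO1 at 5.30, CENPC at 5.05, CENPP at 2.65 and NSL1 at 2.22 FPKM. The NSL1 level is per base of a gene model that the deposited values put at 15090 bases, and 582 to 672 fragments per library lay behind it. By comparison SPC24, at 12.9 FPKM in both groups, had 564 to 632 fragments. Fragments per gene and library ran from 190 for CENPM to 8726 for CENPF, so that the counting error of the lowest library was 7.25% for CENPM and 1.17% for CENPF.

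**Figure D1:**
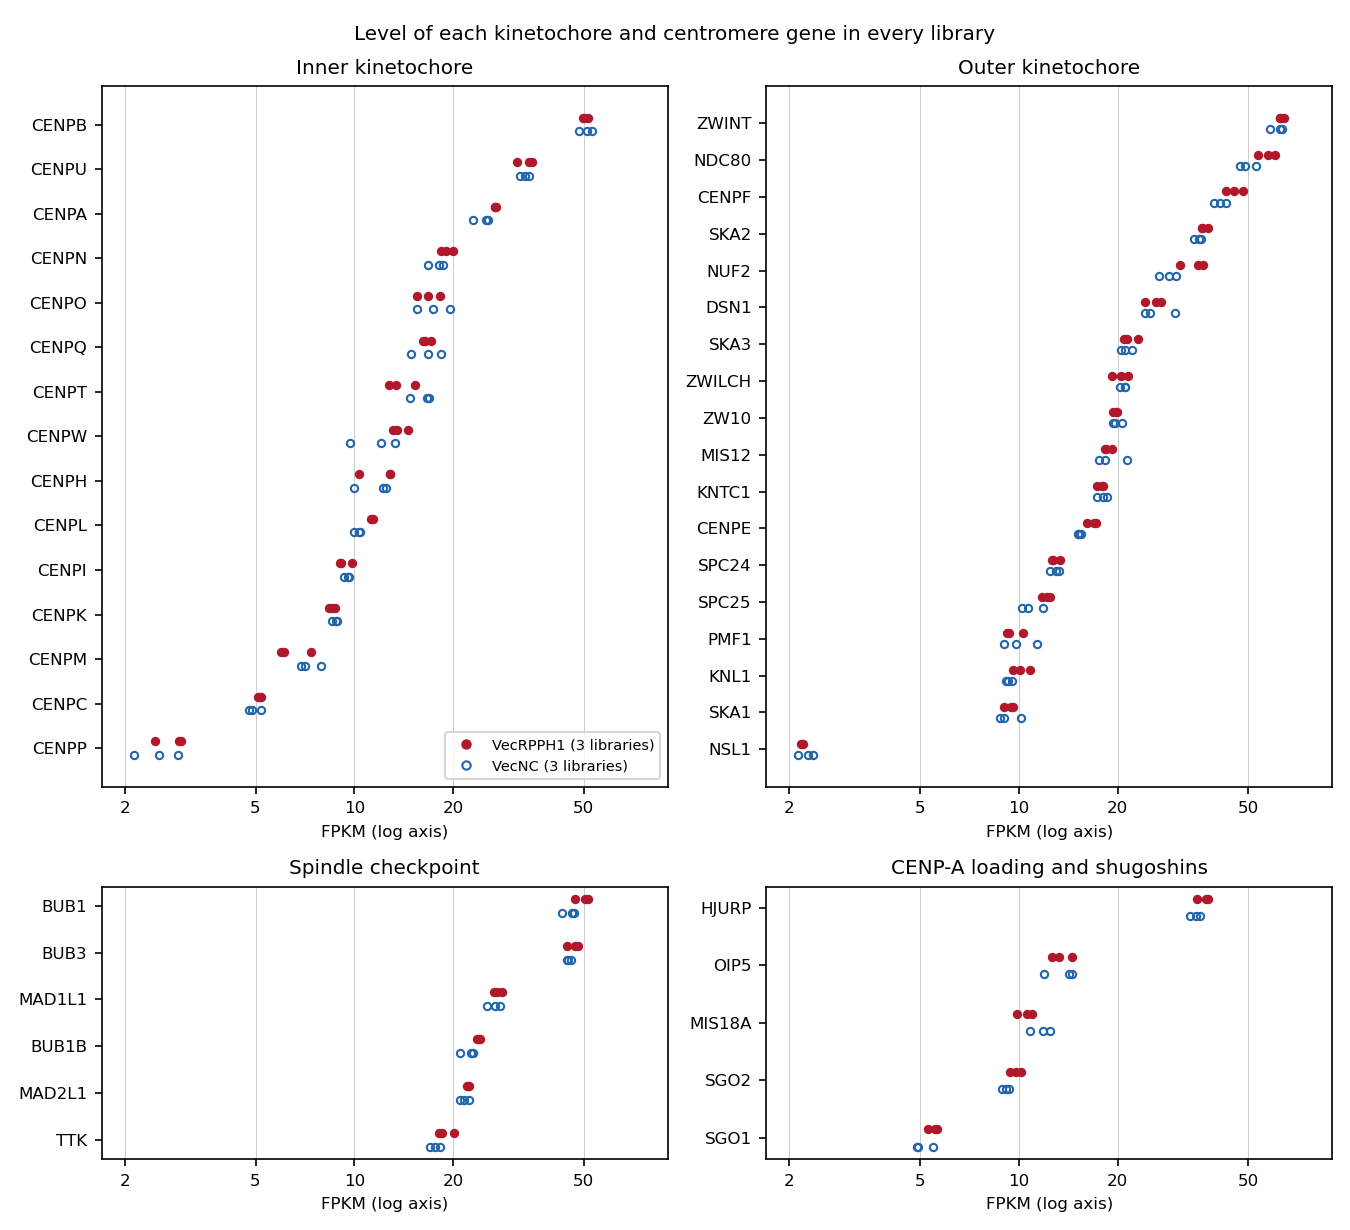
Level of each of the 44 genes in every library, in FPKM on a log axis, by class; filled red points are the 3 VecRPPH1 libraries and open blue circles the 3 VecNC libraries. Levels span 2.22 FPKM (NSL1) to 62.1 FPKM (ZWINT), and the distance between genes is far larger than that between the groups.

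Differences between the groups were small. None of the 44 genes passed an adjusted p of 0.05 in limma, where 0.00917% of the 10909 tested genes did in either direction and 0% did with a higher VecRPPH1 level, and none passed in limma-voom on the recovered fragments, where 0.156% of all genes did. The smallest adjusted p among the members was that of NUF2, 0.398 in limma and 0.163 in limma-voom. Means were higher in VecRPPH1 for 27 genes and lower for 17, and log2 fold changes had a median of 0.04 and a range of -0.21 to 0.25, beside a median of 0.00 for all tested genes, of which 52.3% had higher means. Values of all 3 VecRPPH1 libraries lay above all 3 VecNC libraries in 11 of the 44 genes (25%), where 7.98% of all tested genes showed this, and below them in 0 genes, where 5.88% did. An unadjusted limma p under 0.05 went with a higher mean in 10 members, against 4.29% of all genes, and with a lower mean in 2 members, against 3.68% of all genes. The count of 10 became 3 without VecRPPH1 replicate 1, 3 without VecRPPH1 replicate 3 and 5 without VecNC replicate 3. Since members were selected on this contrast, nothing is read from these shares. In cultures measured in bulk, more cells that express a late cell cycle gene and more RNA per cell cannot be told apart.

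Among the inner kinetochore genes, CENPL, CENPA and CENPW had the smallest p among those with a higher VecRPPH1 mean, and CENPT and CENPM among those with a lower one. CENPA (chr2:26786056-26794589), the histone H3 variant that marks centromeres, had 27.0, 26.8 and 26.9 FPKM in VecRPPH1 and 25.6, 23.0 and 25.2 FPKM in VecNC. The groups did not overlap, and the VecRPPH1 libraries lay within 0.2 FPKM of each other. The log2 fold change was 0.13 ± 0.05 (SE), with a limma adjusted p of 0.573, and it was 0.08 without VecNC replicate 2, the lowest VecNC library. CENPL (chr1:173799550-173824883), the partner of the CENP-A reader CENP-N, had 11.2, 11.3 and 11.4 FPKM in VecRPPH1 and 10.4, 9.95 and 10.3 FPKM in VecNC. These groups did not overlap either, and the difference of 10.5% (log2 fold change 0.13 ± 0.05, limma adjusted p 0.525) was made by libraries that agreed closely within each group. CENPN itself averaged 19.1 ± 0.81 FPKM in VecRPPH1 and 17.9 ± 0.97 FPKM in VecNC, with overlapping values.

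CENPT and CENPW encode histone-fold proteins that form a joint complex, and CENP-T is a docking site for the NDC80 complex. CENPW (chr6:126340115-126483320) had 13.5, 13.2 and 14.6 FPKM in VecRPPH1 and 12.0, 13.3 and 9.68 FPKM in VecNC, a log2 fold change of 0.23 ± 0.09. VecNC replicate 3 was far below the other libraries, and without it the log2 fold change was 0.11. CENPT (chr16:67828157-67847693) had 12.8, 15.3 and 13.4 FPKM in VecRPPH1 and 16.9, 14.8 and 16.7 FPKM in VecNC. Its log2 fold change of -0.21 ± 0.07 was the lowest of the 44 genes, yet the groups overlapped, because VecRPPH1 replicate 2 lay above VecNC replicate 2, and the limma adjusted p was 0.525. The CENPT to CENPW ratio was thus 1.01 ± 0.13 in VecRPPH1 and 1.41 ± 0.31 in VecNC (SD, n = 3 each). The 2 partner genes had the highest and the lowest fold change of the inner class.

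CENPM (chr22:41927196-41947152), a member of the CENP-H/I/K/M subcomplex, had 6.10, 5.96 and 7.39 FPKM in VecRPPH1 and 7.90, 6.90 and 7.10 FPKM in VecNC. Its log2 fold change was -0.15 ± 0.08, with overlapping groups and 190 to 264 fragments per library, and it was -0.10 without VecNC replicate 1 and -0.24 without VecRPPH1 replicate 3. CENPB (chr20:3783851-3786740), which binds alphoid satellite DNA and was the inner gene with the highest level, averaged 50.4 ± 0.81 FPKM in VecRPPH1 and 50.9 ± 2.27 FPKM in VecNC. The limma 95% interval of its log2 fold change was -0.11 to 0.08. CENPP (chr9:92325468-92620529), of the CENP-O/P/Q/U subcomplex and the lowest inner gene, had 2.46, 2.96 and 2.93 FPKM in VecRPPH1 and 2.90, 2.54 and 2.14 FPKM in VecNC, with interleaved values. CENPC, whose protein bridges CENP-A chromatin and the outer kinetochore, averaged 5.15 ± 0.04 FPKM in VecRPPH1 and 4.95 ± 0.23 FPKM in VecNC. CENPH, CENPI, CENPK, CENPO, CENPQ and CENPU had log2 fold changes between -0.05 and 0.05, and all overlapped.

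These 6 genes complete the inner class as listed here, and their levels show how unequal its transcripts were. In the CENP-H/I/K/M subcomplex, CENPH averaged 12.0 ± 1.44 FPKM in VecRPPH1 and 11.6 ± 1.38 FPKM in VecNC. CENPI averaged 9.34 ± 0.45 FPKM in VecRPPH1 and 9.51 ± 0.19 FPKM in VecNC, and CENPK averaged 8.57 ± 0.18 FPKM in VecRPPH1 and 8.73 ± 0.17 FPKM in VecNC. These 3 genes were thus near 10 FPKM, and the SD of CENPH was the largest of the 3, with VecRPPH1 replicate 2 at 10.3 and VecNC replicate 3 at 9.99 FPKM as its low libraries. In the CENP-O/P/Q/U subcomplex, CENPU, whose protein recruits the kinase PLK1, averaged 33.4 ± 1.87 FPKM in VecRPPH1 and 32.997 ± 1.08 FPKM in VecNC. CENPO averaged 16.8 ± 1.32 FPKM in VecRPPH1 and 17.5 ± 1.99 FPKM in VecNC, and CENPQ averaged 16.6 ± 0.51 FPKM in VecRPPH1 and 16.7 ± 1.73 FPKM in VecNC. The CENPU to CENPP ratio of levels was 12.1 ± 1.82 in VecRPPH1 and 13.2 ± 1.59 in VecNC. The proteins belong to the same subcomplex, but the ratio rests on gene models put at 2646 bases for CENPU and 5156 bases for CENPP. Behind it lay 1485 to 1695 fragments per library for CENPU and 202 to 281 for CENPP.

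In the outer kinetochore the NDC80 complex had the highest median log2 fold change of any subgroup, 0.17 over its 4 genes. NDC80 (chr18:2571557-2616635) and NUF2 (chr1:163321954-163355759) encode the arm of the complex that binds microtubules. NUF2 had 35.1, 30.9 and 36.3 FPKM in VecRPPH1 and 28.7, 30.2 and 26.8 FPKM in VecNC. Every VecRPPH1 library exceeded every VecNC library, though VecRPPH1 replicate 2 lay just above VecNC replicate 2. The mean was 19.5% higher in VecRPPH1, with a log2 fold change of 0.25 ± 0.07, a 95% interval of 0.10 to 0.39 and a limma adjusted p of 0.398. NDC80 had 57.4, 53.6 and 60.2 FPKM in VecRPPH1 and 48.7, 52.8 and 47.3 FPKM in VecNC, without overlap and again with replicate 2 of both groups close together. Its log2 fold change was 0.20 ± 0.05, with a limma adjusted p of 0.414.

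SPC25 and SPC24 encode the opposite arm, which docks on the MIS12 complex and on CENP-T. SPC25 had 12.1, 11.8 and 12.4 FPKM in VecRPPH1 and 10.7, 11.8 and 10.2 FPKM in VecNC, and VecNC replicate 2 overlapped the VecRPPH1 values. SPC24, in contrast to its partners, had 12.7, 13.3 and 12.6 FPKM in VecRPPH1 and 13.2, 13.0 and 12.5 FPKM in VecNC, a log2 fold change of 0.00 with a 95% interval of -0.11 to 0.10. The NDC80 to NUF2 ratio stayed between 1.63 and 1.77 in all 6 libraries. The NDC80 to SPC24 ratio was 4.51, 4.03 and 4.77 in VecRPPH1 and 3.68, 4.07 and 3.79 in VecNC, overlapping through replicate 2 of both groups. The difference between SPC24 and its partners was not tested.

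**Figure D2:**
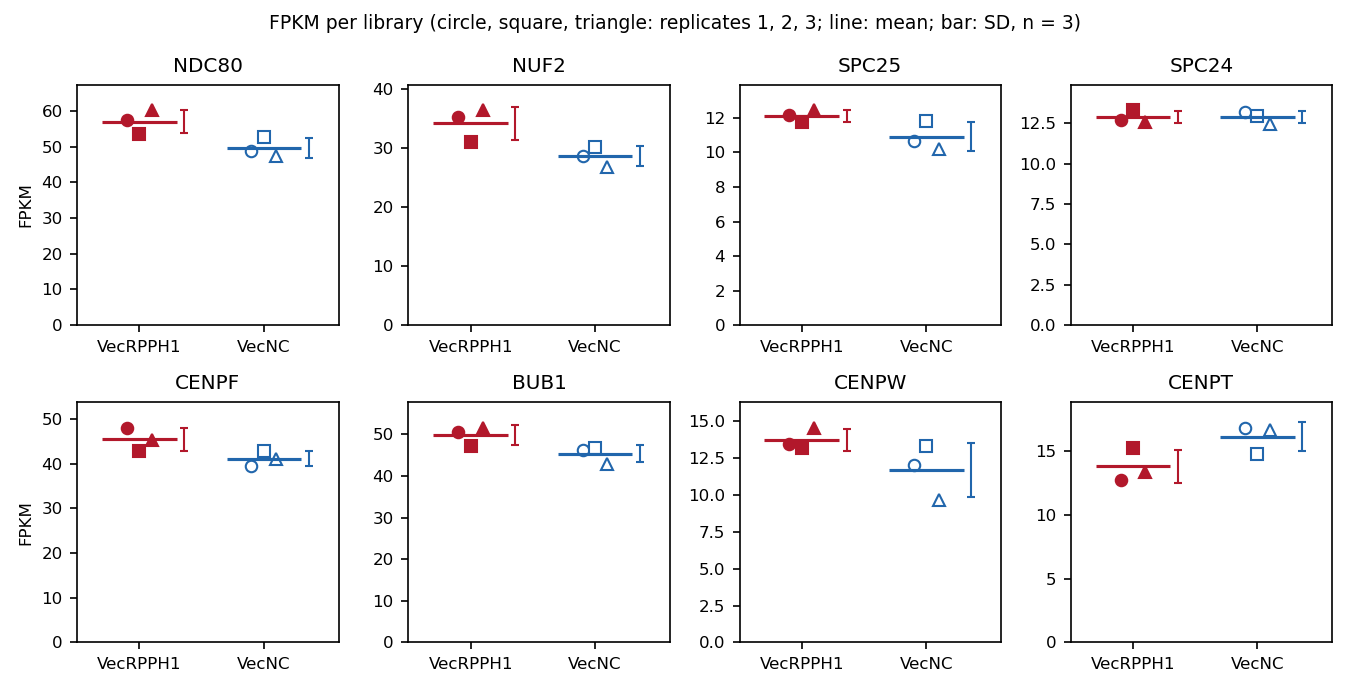
FPKM per library, on axes that start at 0, for the 4 NDC80 complex genes and for CENPF, BUB1, CENPW and CENPT; circles, squares and triangles are replicates 1, 2 and 3, lines are means and bars SD (n = 3). VecRPPH1 replicate 2 lies lowest of its group in NDC80, NUF2, SPC25, CENPF, BUB1 and CENPW, and SPC24 is level between the groups.

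CENPE and CENPF, CENP genes by name, encode proteins of the outermost layer, the fibrous corona. CENPE (chr4:103105811-103198343), a kinesin that moves chromosomes to the spindle equator, had 17.2, 16.1 and 17.0 FPKM in VecRPPH1 and 15.2, 15.4 and 15.1 FPKM in VecNC. The groups did not overlap, and the log2 fold change was 0.13 ± 0.04 with a limma adjusted p of 0.532. CENPF (chr1:214603195-214664571), a large coiled-coil protein, had 48.1, 42.9 and 45.3 FPKM in VecRPPH1 and 39.4, 42.9 and 41.0 FPKM in VecNC. Replicate 2 stood at 42.87 FPKM in VecRPPH1 and 42.86 FPKM in VecNC, so that the absence of overlap rests on that margin. KNL1 (chr15:40594249-40664342), the scaffold on which BUB1 and BUB3 dock, had 10.8, 9.57 and 10.1 FPKM in VecRPPH1 and 9.12, 9.55 and 9.24 FPKM in VecNC. It showed the same narrow margin between replicate 2 of both groups.

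ZWINT (chr10:56357227-56361273), the KNL1 partner and the most abundant of the 44 transcripts per length, had 64.1, 62.6 and 62.3 FPKM in VecRPPH1 and 63.5, 62.3 and 58.1 FPKM in VecNC. Its log2 fold change was 0.04 ± 0.04, with a 95% interval of -0.06 to 0.14. The MIS12 complex, which joins the outer kinetochore to CENP-C, had lower VecRPPH1 means in 4 of 4 genes, a median log2 fold change of -0.03, and overlapping values throughout. Of these PMF1 (chr1:156213007-156240042) had 10.3, 9.34 and 9.21 FPKM in VecRPPH1 and 9.78, 9.04 and 11.4 FPKM in VecNC. Its direction was set by VecNC replicate 3, since the log2 fold change was -0.05 with that library and 0.03 without it. MIS12 averaged 18.7 ± 0.47 FPKM in VecRPPH1 and 19.0 ± 1.97 FPKM in VecNC, and DSN1 averaged 25.9 ± 1.43 FPKM in VecRPPH1 and 26.5 ± 3.06 FPKM in VecNC. In both genes VecNC replicate 1 was the highest library, at 21.3 FPKM for MIS12 and 29.96 FPKM for DSN1, and without it both log2 fold changes were 0.06. The DSN1 value was also above 0, at 0.02, without VecRPPH1 replicate 2, so that of the 4 genes NSL1 alone kept its sign in every fit that left out a library. NSL1 (chr1:212726153-212791777) averaged 2.18 ± 0.01 FPKM in VecRPPH1 and 2.25 ± 0.13 FPKM in VecNC.

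The RZZ complex of KNTC1, ZWILCH and ZW10, which brings dynein and MAD1 to kinetochores, had lower VecRPPH1 means in 3 of 3 genes, by -0.02 in the median. In ZWILCH (chr15:66505326-66550130) the levels were 20.4, 19.3 and 21.4 FPKM in VecRPPH1 and 21.1, 20.4 and 21.1 FPKM in VecNC. KNTC1 averaged 17.7 ± 0.37 FPKM in VecRPPH1 and 17.9 ± 0.64 FPKM in VecNC, and ZW10 averaged 19.7 ± 0.29 FPKM in VecRPPH1 and 19.9 ± 0.68 FPKM in VecNC, so that the 3 subunits stood at like levels. None of the 3 kept its sign in every fit that left out a library: without VecRPPH1 replicate 2 the log2 fold changes of KNTC1, ZWILCH and ZW10 were 0.0002, 0.0048 and 0.0005, and without VecNC replicate 1 those of KNTC1 and ZW10 were 0.0063 and 0.0155. The SKA complex, which holds kinetochores on shortening microtubules, had higher means in 3 of 3 genes, their median log2 fold change being 0.03. Among them SKA2 alone did not overlap, at 36.7 ± 0.90 FPKM in VecRPPH1 and 35.1 ± 0.89 FPKM in VecNC. SKA1 averaged 9.36 ± 0.31 FPKM in VecRPPH1 and 9.30 ± 0.72 FPKM in VecNC, and SKA3 averaged 21.8 ± 1.19 FPKM in VecRPPH1 and 21.3 ± 0.82 FPKM in VecNC. SKA2 kept its sign in every fit that left out a library, whereas SKA1 was at -0.03 without VecNC replicate 1, -0.01 without VecNC replicate 2 and -0.01 without VecRPPH1 replicate 3, and SKA3 at -0.01 without VecRPPH1 replicate 3. The SKA2 to SKA1 ratio of levels stayed between 3.38 and 4.03 in the 6 libraries.

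All 6 spindle checkpoint genes had higher VecRPPH1 means, with log2 fold changes of 0.04 to 0.13 and a median of 0.07. BUB1 (chr2:110637528-110678063), a kinase that binds KNL1, had 50.5, 47.1 and 51.6 FPKM in VecRPPH1 and 46.2, 46.8 and 43.0 FPKM in VecNC. The groups did not overlap, the log2 fold change was 0.13 ± 0.05, and the limma adjusted p was 0.571. BUB1B (chr15:40161069-40221123), which encodes BUBR1 of the mitotic checkpoint complex, had 24.1, 23.6 and 24.0 FPKM in VecRPPH1 and 21.0, 22.9 and 22.7 FPKM in VecNC. It did not overlap either, and VecNC replicate 1 was the lowest library. Without VecNC replicate 1, the BUB1B log2 fold change was 0.07, against 0.10 with it.

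TTK (chr6:80004649-80042527), the MPS1 kinase that starts checkpoint signalling, had 20.1, 18.1 and 18.6 FPKM in VecRPPH1 and 17.0, 17.7 and 18.3 FPKM in VecNC, overlapping by replicate 3 of VecNC. BUB3, MAD1L1 and MAD2L1, which complete the checkpoint class as listed here, differed by 2.64% to 3.29% in their means and all overlapped. MAD2L1, the protein that changes shape to capture CDC20, averaged 22.2 ± 0.12 FPKM in VecRPPH1 and 21.6 ± 0.65 FPKM in VecNC. The limma 95% interval of its log2 fold change was -0.06 to 0.13. BUB3, a WD40 protein that carries BUB1 and BUBR1 to KNL1, averaged 46.5 ± 1.74 FPKM in VecRPPH1 and 45.0 ± 0.78 FPKM in VecNC. MAD1L1, which encodes MAD1, the platform for MAD2 at kinetochores, averaged 27.4 ± 0.81 FPKM in VecRPPH1 and 26.7 ± 1.27 FPKM in VecNC.

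The genes for CENP-A loading did not share a direction. HJURP (chr2:233836702-233854535), the chaperone that deposits CENP-A, had 37.6, 34.8 and 37.2 FPKM in VecRPPH1 and 33.2, 35.6 and 34.6 FPKM in VecNC, overlapping through replicate 2 of both groups. MIS18A (chr21:32154682-32279049), of the complex that primes centromeres for loading, had 10.6, 11.0 and 9.86 FPKM in VecRPPH1 and 12.5, 11.8 and 10.8 FPKM in VecNC. Its log2 fold change was -0.15 ± 0.06 with a limma adjusted p of 0.613, and 1 VecNC library lay inside the VecRPPH1 range. OIP5 (chr15:41309273-41332591), the MIS18A partner also called MIS18B, averaged 13.5 ± 0.97 FPKM in VecRPPH1 and 13.5 ± 1.42 FPKM in VecNC.

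The shugoshin genes SGO1 and SGO2 encode guardians of cohesion at centromeres. SGO2 (chr2:200526142-200584096) had 9.84, 9.43 and 10.2 FPKM in VecRPPH1 and 9.36, 9.16 and 8.88 FPKM in VecNC, without overlap. SGO1 (chr3:20160593-20186886) had 5.63, 5.30 and 5.55 FPKM in VecRPPH1 and 4.90, 5.47 and 4.94 FPKM in VecNC, where VecNC replicate 2 overlapped. Both had log2 fold changes of 0.09, with limma adjusted p of 0.680 for SGO2 and 0.724 for SGO1.

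Of the 4 classes set side by side, only the checkpoint class had a higher VecRPPH1 mean in every gene, 6 of 6. Its median log2 fold change was 0.07. The count depends on how genes were placed. The RZZ genes, which bring MAD1 to kinetochores, were counted as outer and had lower means in 3 of 3. Within the checkpoint class, the MAD1L1 log2 fold change was 0.00099 without VecNC replicate 2. Higher means were found in 8 of 15 inner genes with a median of 0.02, in 10 of 18 outer genes with a median of 0.02, and in 3 of 5 loading and shugoshin genes with a median of 0.08. Groups did not overlap, in the higher direction, in 2 inner, 6 outer, 2 checkpoint and 1 loading or shugoshin genes, beside the 7.98% of all genes. The spread within the outer class was wide, between 0.25 for NUF2 and -0.05 for PMF1, and its subgroups ran from 0.17 for the NDC80 complex and 0.13 for the corona to -0.02 for RZZ and -0.03 for MIS12. If CENPE and CENPF are counted with the CENP genes, the inner median is 0.05 over 17 genes and the outer median is 0.0048. The inner median was -0.01 without VecRPPH1 replicate 1, 0.00 without VecRPPH1 replicate 3, -0.01 without VecNC replicate 3 and 0.07 without VecNC replicate 2, and the outer median was 0.06 without VecNC replicate 1 and 0.00 without VecRPPH1 replicate 3. The checkpoint median lay between 0.05 and 0.09 in the 6 fits that each left out a library. Differences between the classes were not tested, since their genes were chosen on this contrast.

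**Figure D3:**
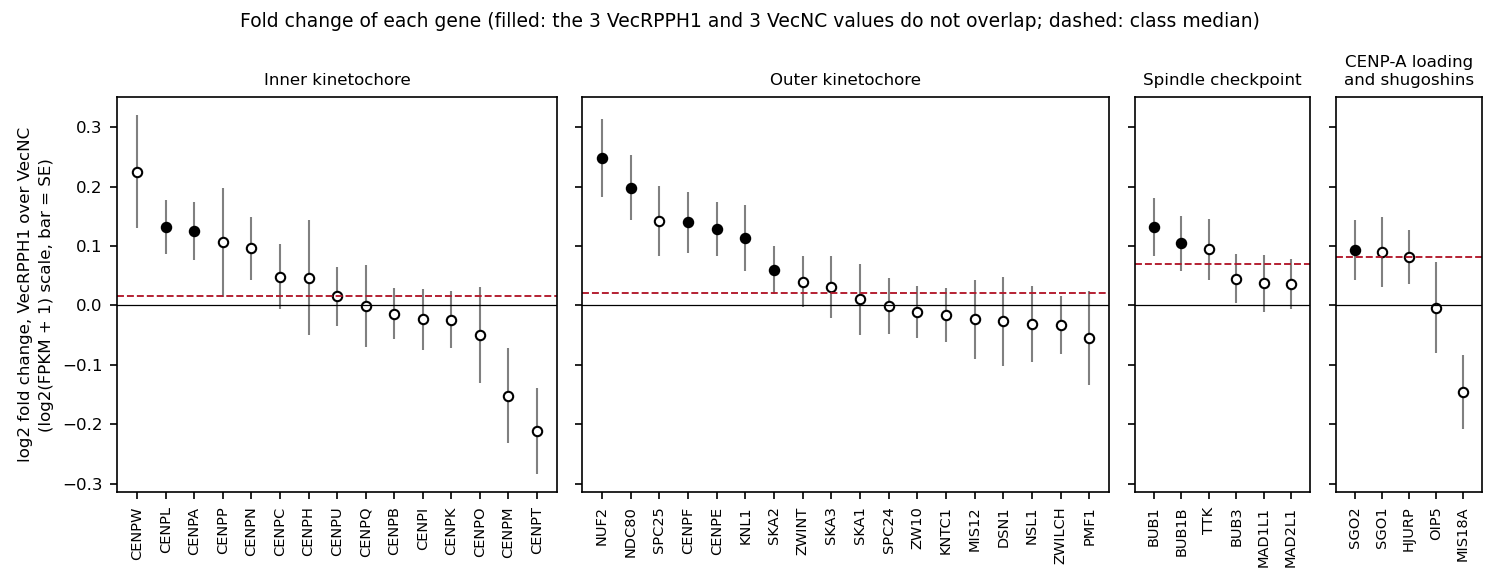
Log2 fold change of each gene, VecRPPH1 over VecNC on the log2(FPKM + 1) scale, with SE as bars, by class; filled points are the 11 genes whose groups did not overlap and the dashed line is the class median. All 6 checkpoint points lie above 0, while the inner class runs from 0.23 (CENPW) to -0.21 (CENPT) and the outer class from 0.25 (NUF2) to -0.05 (PMF1).

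The libraries within a group were not alike for these genes. VecRPPH1 replicate 2 was the lowest library of its group in 29 of the 44 genes (65.9%), beside 35.4% of all tested genes, and in 13 of the 18 outer genes. Its median deviation from the VecNC mean over the 44 genes was 0.02 on the log2(FPKM + 1) scale, against 0.05 in both of the other VecRPPH1 libraries, while the 3 VecNC libraries stood at 0.03, 0.01 and -0.02. Without VecRPPH1 replicate 2, 34 of the 44 genes had higher VecRPPH1 means, and without VecNC replicate 1, 35 did. In all 6 fits that left out a library, 29 genes kept their sign, 23 of them higher and 6 lower. NDC80, NUF2 and BUB1 ranked the 6 libraries in the same order, from VecRPPH1 replicate 3 at the top to VecNC replicate 3 at the bottom. KNL1, CENPF and BUB1B shared another order, in which VecRPPH1 replicate 1 was highest and VecNC replicate 1 lowest. A list of 17 genes of G1/S and S phase stood at -0.03, -0.08 and -0.01 in VecRPPH1 and at 0.07, -0.05 and -0.02 in VecNC, so that VecRPPH1 replicate 2 was the lowest of all 6 libraries there. The part of these differences between libraries, and of the S-phase list, in the members' values was not tested.

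**Figure D4:**
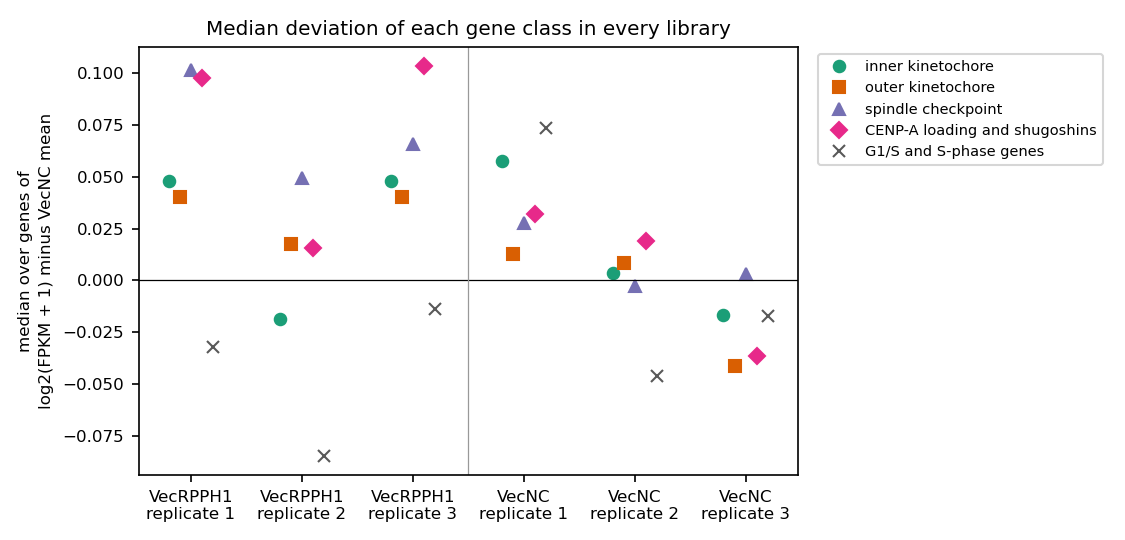
Median over the genes of each class of log2(FPKM + 1) minus the gene's VecNC mean, in every library, with VecRPPH1 libraries left of VecNC libraries. The checkpoint class stands at 0.10, 0.05 and 0.07 in the VecRPPH1 libraries, and VecRPPH1 replicate 2 is the lowest VecRPPH1 library in all 5 lists.

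The CHR core TTTGAA or TTCGAA occurred in the promoter windows of 19 of 36 members (52.8%), beside 15.4% of 9078 tested genes with a window and 19.5% of all 27305 genes in the promoter table. Within 50 bases of the start it occurred in 16 members (44.4%), beside 5.05% of tested and 6.24% of all genes, a distance chosen after the positions were seen. CCAAT was found in 23 members (63.9%), beside 44.1% and 39.7%, and GCGGGAA in 8 members (22.2%), beside 13.3% and 7.82%. Each search covered both strands, and no matches of different motifs overlapped in a member. By class, a CHR core near the start stood in 4 of 12 inner, 7 of 16 outer, 3 of 4 checkpoint and 2 of 4 loading or shugoshin promoters.

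Of the 16 members with a CHR core near the start, 14 had a higher VecRPPH1 mean, and their median log2 fold change was 0.10. Of these 16, 6 did not overlap, beside 7.98% of all tested genes in that direction, with or without a core. Among the 20 without it, 8 had a higher mean, the median was -0.01, and SKA2, CENPE and SGO2 did not overlap. The other 8 promoters, of CENPL, CENPH, CENPM, KNL1, KNTC1, BUB3, TTK and MIS18A, were not analysed here, and 5 of these genes had a higher mean. Over all tested genes, the members included, 285 of 458 with a core near the start had a higher mean, with a median of 0.02. Without a core there, 4459 of 8620 did, with a median of 0.00. CENPO and OIP5, whose printed windows carry the core at positions 37 and 2, had log2 fold changes of -0.05 and 0.00. The members were chosen with this contrast known, and the distance after the positions were seen. The difference between members with and without a core was therefore not tested, and nothing is read from it. A match of 6 letters is a description of sequence and not evidence of a bound site.

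**Figure D5:**
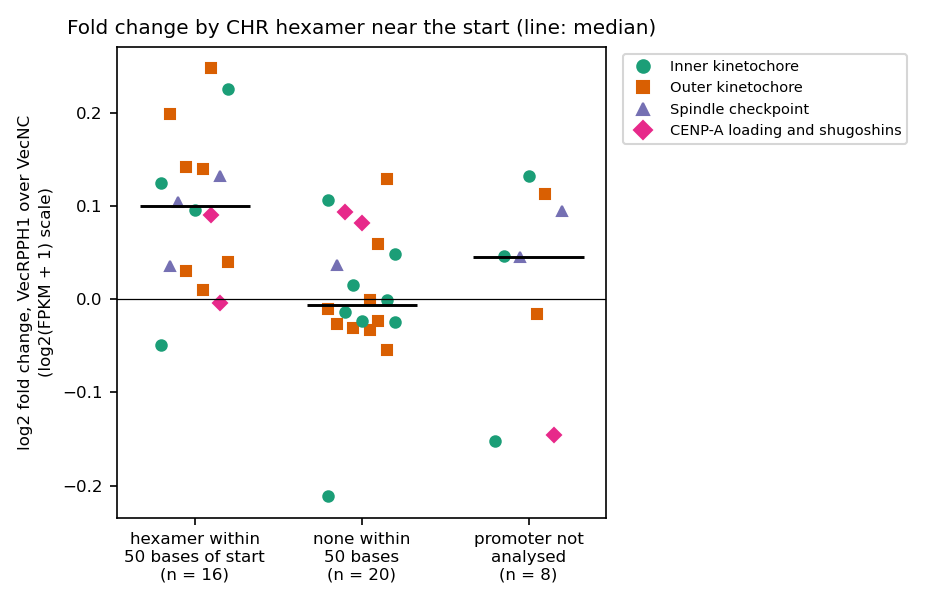
Log2 fold change of each of the 44 genes, VecRPPH1 over VecNC, by whether TTTGAA or TTCGAA lies within 50 bases of the start; colours give the class and lines the medians. Medians are 0.10 for the 16 genes with the hexamer, -0.01 for the 20 without and 0.05 for the 8 whose promoter was not analysed.

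A further 25 genes that act at kinetochores but are not among the 44 were described from a list of proteins known to act there. This list, too, was chosen with earlier results of these data known, so its shares are a description. Higher VecRPPH1 means were found in 19 of 25 (52.3% of all tested genes), the median log2 fold change was 0.07, and 0 passed an adjusted p of 0.05 in limma or limma-voom. At an unadjusted p under 0.05, 7 were higher and 1 lower, where 4.29% and 3.68% of all tested genes were. CDCA8, the borealin subunit of the chromosomal passenger complex, had 48.2, 46.0 and 50.6 FPKM in VecRPPH1 and 42.9, 40.2 and 42.7 FPKM in VecNC, without overlap and with a limma adjusted p of 0.326. SPAG5, a kinetochore and spindle protein also called astrin, had 34.1, 33.5 and 33.2 FPKM in VecRPPH1 and 29.3, 30.8 and 29.8 FPKM in VecNC, also without overlap (limma adjusted p 0.351). CENPS, a histone-fold partner in the CENP-T complex, had 1.81, 2.34 and 1.57 FPKM in VecRPPH1 and 2.76, 2.61 and 2.65 FPKM in VecNC. It did not overlap in the lower direction, but only 25 to 47 fragments per library lay behind it, a counting error of 20% in the lowest library. The log2 fold change of CENPS was -0.35 ± 0.09 in limma (adjusted p 0.414) and -0.50 ± 0.24 in limma-voom (adjusted p 0.583), and BOD1 averaged 40.2 ± 1.31 FPKM in VecRPPH1 and 41.8 ± 3.12 FPKM in VecNC. CENPS shares exons with the read-through gene CENPS-CORT, so its fragments may be split between them.

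Several members overlap other listed genes in GENCODE release 29, which may touch how their fragments were assigned. The annotation behind the deposited values is not known. CENPA spans 26764289 to 26801067 in that release, wider than the RefSeq span printed above. NUF2, HJURP and SGO2 also begin at lower coordinates there, so some overlaps may not hold for the deposited values. In that release CENPA shares exons on the same strand with SLC35F6, and BUB1B with the read-through gene BUB1B-PAK6. A further 12 members have exons opposite those of a listed gene, among them CENPT with NUTF2, THAP11 and TSNAXIP1, NUF2 with RGS5, HJURP with MROH2A and SGO2 with KCTD18. The libraries were stranded, per the labels' protocols, but whether the counting used strand is not given in the sources used here, so fragments of such pairs may not be fully told apart.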

How the data were processed

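Total RNA was made into stranded mRNA libraries, per the labels' protocols. The submitters' processing notes list Trimmomatic, HISAT2 and Cufflinks, with no versions, and GRCh38 as the build. No annotation release is given in the sources used here. Values were deposited as FPKM, 1 column per library. FPKM divides out depth and length, so whole fragments were recovered from the steps of the deposited values: all 6 values came out whole for 10909 of 10909 genes (100%), at a tolerance of 0.01 fragments and a relative 3e-08.

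The test was limma 3.58.1 (R 4.3.3) with a mean-variance trend on log2(FPKM + 1) for genes reaching 1 FPKM in 3 libraries or more, group as the only term and Benjamini-Hochberg adjustment over 10909 genes at a threshold of 0.05. Fold changes on this scale understate those of low genes. The smallest two-sided p of an exact permutation test of 3 against 3 libraries is 0.1, so none was used. No replicate pair agreed within counting noise (chi-square over degrees of freedom 2.21 to 8.36), so none was treated as deposited more than once, and each library was counted as 1 sample; this does not show that the cultures were separate. Counting errors and intervals from fragments cover counting error only.

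The 44 members and all gene lists were chosen with earlier results of these data known. Described in full for each class were the 3 genes with a higher and up to 2 with a lower VecRPPH1 mean by smallest p, and those with the highest and lowest level; for other lists, up to 2 genes per direction. Of members outside this rule, those given library by library (SPC24, SPC25, CENPF and KNL1) were picked after their values were seen. NCAPG2, not a member, was also given outside this rule, beside the other condensin II genes. Alternatives were a pseudocount of 0.1, no filter, a filter at 5 FPKM, a replicate block, leaving out each library, median-of-ratios scaling, a fold of at least 1.5 and limma-voom on recovered fragments. Promoters and gene positions came from RefSeq (GRCh38.p14), overlaps from GENCODE 29.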

Additional observations from a re-analysis of the deposited data

How the results depend on the processing

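No member passed an adjusted p of 0.05 by limma or limma-voom in any of the 12 alternative fits, and the median log2 fold change of the 44 genes stayed between 0.03 and 0.06. The number of genes passing over the whole table was 1, but 0 with no filter on low values, 0 with the replicate block, 0 with a fold of at least 1.5, 8 with a filter at 5 FPKM, 17 by limma-voom on recovered fragments, and 0 to 7 when a library was left out. Same-numbered libraries did not deviate together (correlations 0.06, 0.02 and -0.10), and differently numbered ones ranged between -0.17 and 0.20. These correlations cannot show whether same-numbered libraries were prepared together, so pairing stays unknown. With the replicate number as a block, 0 members passed and 27 had higher VecRPPH1 means. Leaving out a library put the inner median between -0.0084 and 0.0675, the outer median between 0.0040 and 0.0609, the checkpoint median between 0.0470 and 0.0942, and that of other kinetochore genes between 0.0616 and 0.105. Log2 fold changes near 0 changed sign when a library was left out, with ranges of -0.0476 to 0.0152 for CENPB, -0.123 to 0.0297 for PMF1, -0.0691 to 0.0048 for ZWILCH and -0.0871 to 0.0450 for OIP5. Median-of-ratios scaling moved the median of all genes to 0.00 and reversed no member described in full. Among the 44 genes, depth limits CENPM, PMF1 and CENPP most, at 190, 200 and 202 fragments in their lowest libraries.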

Other observations

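Genes of chromosome structure outside the kinetochore were also examined, from lists of condensin and cohesin genes. Of 8 condensin subunits, which compact mitotic chromosomes, 6 had higher means in VecRPPH1 and the median log2 fold change was 0.08. SMC4, the core ATPase shared by both condensins, had 85.7, 79.4 and 85.2 FPKM in VecRPPH1 and 74.4, 77.7 and 74.0 FPKM in VecNC, without overlap (limma adjusted p 0.465). NCAPD2, of condensin I, averaged 52.4 ± 1.86 FPKM in VecRPPH1 and 49.4 ± 0.49 FPKM in VecNC. The condensin II genes NCAPD3 and NCAPH2 had lower VecRPPH1 means, at 15.2 ± 0.79 and 20.9 ± 2.18 FPKM in VecRPPH1, against 15.9 ± 0.56 and 21.6 ± 0.83 FPKM in VecNC, and overlapped. NCAPG2, also of condensin II, had a higher mean, at 27.4 ± 1.38 FPKM in VecRPPH1 against 26.6 ± 0.69 FPKM in VecNC, and overlapped too. Of 11 cohesin genes, 8 had higher VecRPPH1 means, with a median of 0.03. PTTG1, the securin that restrains separase, had 114.8, 111.8 and 124.1 FPKM in VecRPPH1 and 104.7, 104.9 and 100.5 FPKM in VecNC, without overlap (limma adjusted p 0.389). RAD21 averaged 155.1 ± 5.07 FPKM in VecRPPH1 and 145.6 ± 3.54 FPKM in VecNC, while CDCA5 averaged 29.2 ± 0.74 and PDS5B 8.05 ± 0.62 FPKM in VecRPPH1, against 30.2 ± 0.72 and 8.07 ± 0.45 FPKM in VecNC.

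Of 17 genes of G1/S and S phase, 15 had lower means in VecRPPH1 and the median log2 fold change was -0.04. The median deviation of this list from the VecNC mean was -0.03, -0.08 and -0.01 in VecRPPH1 and 0.07, -0.05 and -0.02 in VecNC, so that VecNC replicate 1, the library far from the rest in the principal component analysis, alone lay above the VecRPPH1 range. E2F1, which drives entry into S phase, had 22.9, 23.1 and 23.7 FPKM in VecRPPH1 and 27.6, 24.8 and 27.5 FPKM in VecNC, without overlap (limma adjusted p 0.404). GINS2, of the replicative helicase, averaged 6.40 ± 0.35 FPKM in VecRPPH1 and 7.40 ± 0.21 FPKM in VecNC, also without overlap. TYMS and PCNA had higher means, at 152.5 ± 4.98 and 143.3 ± 2.03 FPKM in VecRPPH1, against 144.7 ± 8.69 and 141.1 ± 3.80 FPKM in VecNC. None of the genes in these 3 lists passed an adjusted p of 0.05 in limma or limma-voom. The lists were chosen with earlier results of these data known, so their shares are a description. An unadjusted limma p under 0.05 was found in 1 of 8 condensin and 2 of 11 cohesin genes with a higher mean, beside 4.29% of all tested genes, and in 3 of 17 G1/S and S-phase genes with a lower mean, beside 3.68%.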
